A study of Mus musculus with 2 samples.

Results

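The 9 genes described here are the core of the mouse Hedgehog pathway: the ligands Shh, Dhh and Ihh, the receptor Ptch1, the signal transducer Smo, the transcription factors Gli1, Gli2 and Gli3, and the ligand-binding protein Hhip. They were chosen by name, and all 9 were matched among the 55536 annotated genes of the deposited tables. Total RNA was measured in whole adrenal gland of male B6CASTF1/J mice aged 10 days. These mice are first-generation hybrids of C57BL/6J and CAST/EiJ. They form 1 group of 2 libraries, each from 300 ng of RNA to which ERCC spike-ins were added, so no condition was set against another. The labels number the libraries as biological replicates but give both the same donor identifier, and for replicate 2 they state 2 animal numbers, 4 and 3, of which 3 is also that of replicate 1. The spread between the libraries may therefore be technical. Expected counts totalled 38984236 in replicate 2 and 36982665 in replicate 1.

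Hedgehog ligands are secreted proteins that bind Ptch1 on a neighbouring cell. Ligand binding relieves the block that Ptch1 places on Smo. Smo then acts through the primary cilium to shift Gli2 and Gli3 from repressor forms towards activators of transcription. Gli1, Ptch1 and Hhip are themselves switched on by the pathway, and Ptch1 and Hhip then hold it back. In the mouse adrenal gland, Shh is known to be made by cells of the outer cortex beneath the capsule, and Gli1 marks the capsule cells that receive the signal. Whole-gland RNA does not show which cells hold a transcript. Elsewhere, Dhh is known as the ligand of Schwann cells and of the testis, and Ihh as the ligand of growth plate cartilage and gut.

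Of the ligands only Shh reached 1 TPM in both libraries, and Ptch1, Smo, Hhip, Gli1 and Gli3 did too. Levels are in TPM, a share of all transcripts in a library that is corrected for length, which allows different genes to be compared. Of the 9 genes, 6 reached 1 TPM in both libraries, where 56.7% of 22028 protein-coding genes did. Dhh, Ihh and Gli2 stayed below 1 TPM in both by their point values. The authors' deposited TPM intervals reached above 1 for Dhh, up to 1.25 in replicate 2 and 1.05 in replicate 1. Those of Gli2 did too, up to 1.45 and 1.44. From high to low, mean TPM over both libraries ran Smo, Ptch1, Shh, Gli3, Hhip, Gli1, Dhh, Gli2 and Ihh. Neighbours in this order had ranges that did not overlap, except Gli3 and Hhip, whose levels did not differ beyond the spread of the libraries. The order of close neighbours depended on the table. In the second transcript table the ranges of Gli3 and Hhip were apart, at 3.57 and 5.30 TPM for Gli3 and 3.11 and 2.83 TPM for Hhip in replicates 2 and 1. The ranges of Hhip and Gli1 overlapped there, as did those of Dhh, at 0.751 and 0.698 TPM, and Gli2, at 0.710 and 0.740 TPM.

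**Figure D1:**
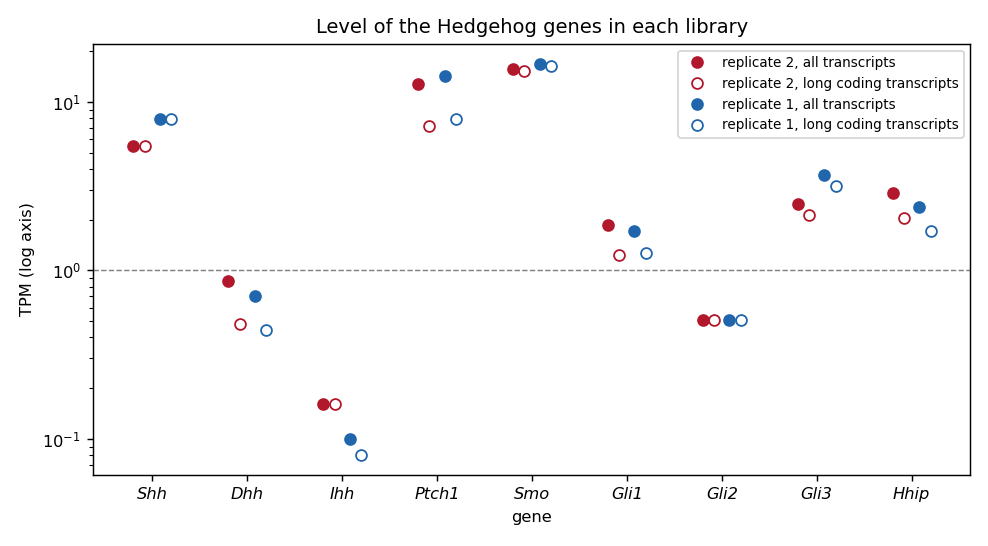
TPM of each gene (log axis) in replicate 2 (red) and replicate 1 (blue), with filled points for all transcripts and open points for protein-coding transcripts of at least 2000 bases. The dashed line marks 1 TPM. Shh, Ptch1, Smo, Gli1, Gli3 and Hhip lie above it, and the open points of Ptch1 drop to the level of Shh.

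The promoters of the feedback genes Ptch1 and Hhip are shown because these genes are among the known transcriptional targets of the pathway, and because the transcripts of Ptch1 use more than 1 start. Each is the stretch of 250 bases just before the RefSeq start site in GRCm38.p6 (mm10), read on the minus strand, with CG dinucleotides in capitals. That of Ptch1 lies at chr13:63565736-63565985 and that of Hhip at chr8:80058009-80058258.
Ptch1: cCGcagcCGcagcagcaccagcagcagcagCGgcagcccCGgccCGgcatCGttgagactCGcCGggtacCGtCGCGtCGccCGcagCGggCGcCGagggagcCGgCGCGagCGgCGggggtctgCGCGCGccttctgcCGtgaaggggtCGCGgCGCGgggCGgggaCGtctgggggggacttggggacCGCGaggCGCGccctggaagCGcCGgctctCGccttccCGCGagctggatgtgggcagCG
Hhip: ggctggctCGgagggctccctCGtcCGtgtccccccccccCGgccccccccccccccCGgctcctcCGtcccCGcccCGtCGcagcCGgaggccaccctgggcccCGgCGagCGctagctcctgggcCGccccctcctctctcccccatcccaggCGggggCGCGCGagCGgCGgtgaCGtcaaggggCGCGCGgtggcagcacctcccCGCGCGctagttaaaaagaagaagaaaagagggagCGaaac

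The promoter of Ptch1 held 41 CG dinucleotides in these bases and that of Hhip held 28. RefSeq windows of 300 bases, from 250 before to 50 after the start, were found for 7 genes, and Shh and Gli1 were not among them. The GC content of the 7 windows ran between 61.7% and 76.3% with a median of 71.0%, while 20150 windows of protein-coding genes had a median of 57.0%. The ratio of observed to expected CG was highest in Gli3, at 1.12, and Ptch1, at 1.09, and lowest in Dhh, at 0.438, beside a median of 0.588 over the same protein-coding windows. The Gli binding motif GACCACCCA, searched on both strands, was found in none of the 7 windows and in 0.253% of all 32851 windows. Its shorter core CCACCCA, which lies inside it, was also found in none of the 7 and in 9.30% of all. These letters are therefore not in these windows, which says nothing of sites elsewhere.

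Among the ligands, Shh (ENSMUSG00000002633.4, chromosome 5, 28456815 to 28467256, minus strand) was far above the others. It stood at 5.45 TPM from 556 expected counts in replicate 2 and at 7.87 TPM from 792 in replicate 1, a mean of 6.66 ± 1.71 TPM (SD, n = 2). Both libraries were above the median protein-coding gene, which stood at 2.42 TPM. Dhh (ENSMUSG00000023000.5, chromosome 15, 98891152 to 98898540, minus strand) stood at 0.870 TPM from 82.6 expected counts in replicate 2 and at 0.700 TPM from 73.0 in replicate 1. Ihh (ENSMUSG00000006538.12, chromosome 1, 74945315 to 74951672, minus strand) had 14 counts in replicate 2 and 8 in replicate 1, or 0.16 and 0.10 TPM. Ihh thus rested on few counts in both libraries, while Dhh was low in both.

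Within each library Shh exceeded Dhh by 2.52 (replicate 2) and 3.32 (replicate 1) on the log2(TPM + 0.1) scale, a mean of 2.92 ± 0.57 (SD, n = 2). Shh exceeded Ihh by 4.87 ± 0.64 on that scale (SD, n = 2), and by 2.74 with a pseudocount of 1 TPM. The smaller margin of Shh over Dhh in replicate 2 came with fewer Shh counts and more Dhh counts there. With 2 libraries no exact test can go below a two-sided p of 0.5, so these differences carry no p-value.

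Ptch1 and Smo were the most abundant of the 9 genes. Ptch1 (ENSMUSG00000021466.12, chromosome 13, 63508328 to 63573598, minus strand), the receptor, stood at 12.8 TPM from 2110 expected counts in replicate 2 and at 14.3 TPM from 2288 in replicate 1, a mean of 13.6 ± 1.03 TPM (SD, n = 2). Smo (ENSMUSG00000001761.7, chromosome 6, 29735503 to 29761365, plus strand), which Ptch1 represses, stood at 15.7 TPM from 2121 counts in replicate 2 and at 16.9 TPM from 2251 in replicate 1, a mean of 16.3 ± 0.81 TPM (SD, n = 2). Both lay in the upper part of the transcriptome, above 78.3% (Ptch1) and 81.6% (Smo) of protein-coding genes. Ptch1 was below Smo by 0.29 in replicate 2 and by 0.24 in replicate 1 on the log2 scale.

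Hhip (ENSMUSG00000064325.4, chromosome 8, 79965851 to 80058006, minus strand), which binds ligand at the cell surface and keeps it from Ptch1, stood at 2.86 TPM from 714 expected counts in replicate 2 and at 2.37 TPM from 592 in replicate 1. It was lower than Ptch1 by a mean log2 difference of -2.34 ± 0.29 (SD, n = 2). Gli1 (ENSMUSG00000025407.7, chromosome 10, 127329882 to 127341974, minus strand), the activator that is itself a target, stood at 1.86 TPM from 198 counts in replicate 2 and at 1.72 TPM from 196 in replicate 1. Its level was near that of Hhip, with a log2 difference of Hhip minus Gli1 of 0.59 in replicate 2 and 0.44 in replicate 1. In the second transcript table that mean difference was 0.19, and the ranges of both genes overlapped there, with Hhip at 3.11 and 2.83 TPM and Gli1 at 2.29 and 2.93 TPM. Of the feedback genes, Ptch1 was the highest in both tables, with a log2 difference of Gli1 minus Ptch1 of -2.85 ± 0.18 (SD, n = 2).

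The ranges of the 3 Gli genes did not overlap. Gli3 (ENSMUSG00000021318.15, chromosome 13, 15463235 to 15730026, plus strand), which acts mostly as a repressor when no ligand is present, stood at 2.47 TPM from 602 expected counts in replicate 2 and at 3.66 TPM from 845 in replicate 1. Gli2 (ENSMUSG00000048402.14, chromosome 1, 118834132 to 119053619, minus strand), the main primary activator of the pathway, stood at 0.510 TPM in both libraries, from 123 counts in replicate 2 and 122 in replicate 1. Gli3 exceeded Gli1 by 0.39 in replicate 2 and by 1.05 in replicate 1 on the log2 scale, and it exceeded Gli2 by 2.35 ± 0.39 (SD, n = 2). Gli2 was the lowest of the 3 in both libraries. The point value of Gli2 lay outside the authors' deposited credibility interval of its TPM, which ran between 0.658 and 1.45 in replicate 2 and between 0.674 and 1.44 in replicate 1. No other gene of the 9 had a point value outside its interval.

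Part of these levels rested on short annotated transcripts with few reads, since TPM divides by length. For Ptch1, the transcript Ptch1-207, a coding model of 809 bases, took 133 of the expected counts in replicate 2 and 148 in replicate 1. That was 6.28% and 6.46% of the gene's reads but 39.2% and 39.8% of its TPM. The authors' posterior SD of these reads was 28.6 in replicate 2 and 21.5 in replicate 1. The long coding transcript Ptch1-202, of 7002 bases, took 60.9% of reads in replicate 2 and 67.6% in replicate 1, and Ptch1-201, of 7725 bases, took 29.2% and 22.4%. Ptch1-201 begins at the RefSeq start behind the promoter printed above, and Ptch1-202 begins 1200 bases downstream of it. The second transcript table gave Ptch1-207 8.70% of Ptch1 TPM in replicate 2 and 0.0938% in replicate 1, and it gave 25.4% and 22.6% to Ptch1-205, of 1123 bases, which had no reads in the first table. The quantifications thus did not place the short forms alike.

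Short models also weighed on other genes of the 9. Dhh-202, of 694 bases, took 8.65 expected counts in replicate 2 and 5.67 in replicate 1, yet 44.8% and 37.1% of Dhh TPM, and the second transcript table listed it at 0. Gli1-205, a retained-intron model of 795 bases, took 12 counts and 24.9% of Gli1 TPM in replicate 2, and 9.28 counts and 21.1% in replicate 1. Hhip-202, a noncoding model of 1173 bases, took 28.7% of Hhip TPM in replicate 2 and 27.4% in replicate 1, with 4.56% and 4.32% of the reads. The second transcript table gave Hhip-202 7.56% and 8.49%. Shh has a single annotated transcript, and all reads of Gli2 were placed on Gli2-201. By mean TPM over both libraries, the main transcript was the same in both tables for all 9 genes. For Ptch1 this was Ptch1-202, although in replicate 2 of the first table Ptch1-207 was marginally higher, at 5.03 against 5.01 TPM.

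Some of these genes lie over others, and whether counting used strand is not given in the sources used here. Arhgap9, on the strand opposite to Gli1, had 162 expected counts in replicate 2 and 53 in replicate 1. Rhebl1 overlaps Dhh on the same strand, with 32.38 counts in replicate 2 and 36.03 in replicate 1. The antisense gene 9530036O11Rik over Shh had 3 counts in replicate 2 and 10 in replicate 1. Shh was thus far above what overlaps it, while Gli1 and Dhh were within several-fold of it.

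**Figure D2:**
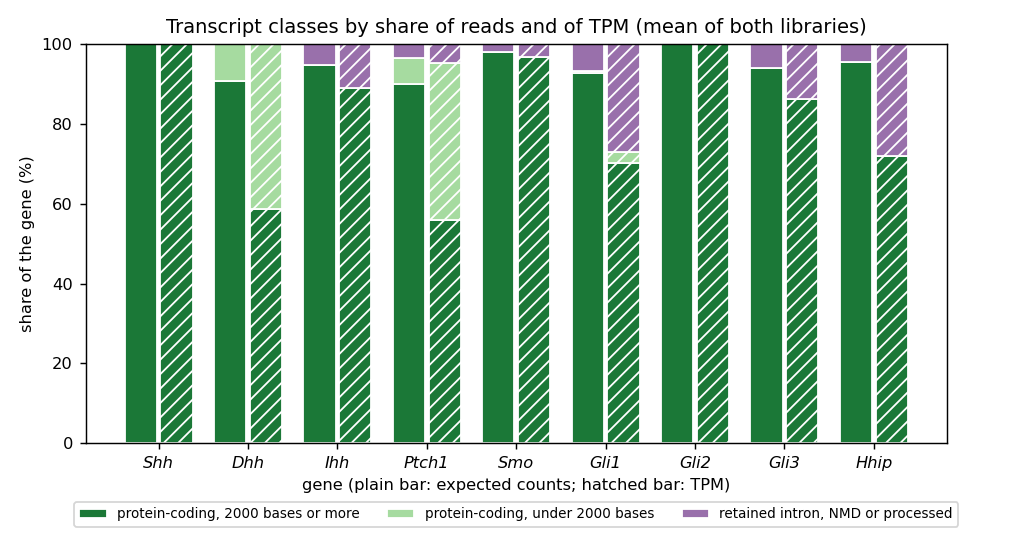
Share of each gene (%) that falls to long protein-coding transcripts (dark green), short protein-coding transcripts (light green) and other transcript models (purple), as means of both libraries. Plain bars are expected counts and hatched bars are TPM. Long coding transcripts hold 90.1% of the reads but 55.8% of the TPM of Ptch1, and 90.8% of the reads but 58.6% of the TPM of Dhh.

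Over protein-coding transcripts of at least 2000 bases only, a restriction chosen after these shares were seen, Ptch1 stood at 7.19 TPM in replicate 2 against 7.96 in replicate 1. It then overlapped the range of Shh, and the mean log2 difference of Ptch1 minus Shh was 0.20 ± 0.27, where it was 1.04 ± 0.26 over all transcripts (SD, n = 2). Ptch1 minus Smo was -1.05 ± 0.02, where it was -0.26 ± 0.04 over all transcripts (SD, n = 2). Dhh, at 0.480 TPM in replicate 2 against 0.440 in replicate 1, was below Gli2 under this restriction, and the ranges of Gli3, at 2.12 TPM in replicate 2 and 3.17 in replicate 1, and Hhip, at 2.04 and 1.72 TPM, no longer overlapped. Shh minus Dhh was then 3.57 ± 0.44, and the same 6 genes stayed at 1 TPM or more.

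Between the replicates, 7 genes averaged 100 expected counts or more, and none of them lay more than 2-fold apart. Over all 13188 genes past that filter, 4.37% were more than 2-fold higher and 0.114% more than 2-fold lower in replicate 2. The ratios below are of scaled counts, replicate 2 over replicate 1, with exact binomial 95% intervals that cover counting error only. Shh was at 0.703-fold (0.629 to 0.784) and Gli3 at 0.713-fold (0.641 to 0.793), the 2 lowest of the 9. Hhip was at 1.21-fold (1.08 to 1.35) and Ptch1 at 0.923-fold (0.870 to 0.980). Smo was at 0.943-fold (0.888 to 1.00), Gli1 at 1.01-fold (0.826 to 1.24) and Gli2 at 1.01-fold (0.779 to 1.31). Shh and Gli3 were thus lower in replicate 2 and Hhip higher, while the intervals of Smo, Gli1 and Gli2 held 1.

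The interval excluded 1 for 4 of these 7 genes, Shh, Gli3, Ptch1 and Hhip, where it did for 46% of all genes past the filter. Scaled by library total or by spike-ins, Smo joined them, and the background was then 54.2% and 51.2%. The ratios of Gli1 and Gli2, close to 1, changed sign under those scalings. Shh, with a log2 ratio of -0.51, and Gli3, with -0.49, lay below the 5th percentile of all genes, which was -0.32. The median log2 ratio was -0.08 over the 7 genes and -0.01 over all genes past the filter. The genes below the filter had wide intervals, with Dhh at 1.13-fold (0.821 to 1.58) and Ihh at 1.75-fold (0.686 to 4.82). No difference of either could be told from counting error at this depth.

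**Figure D3:**
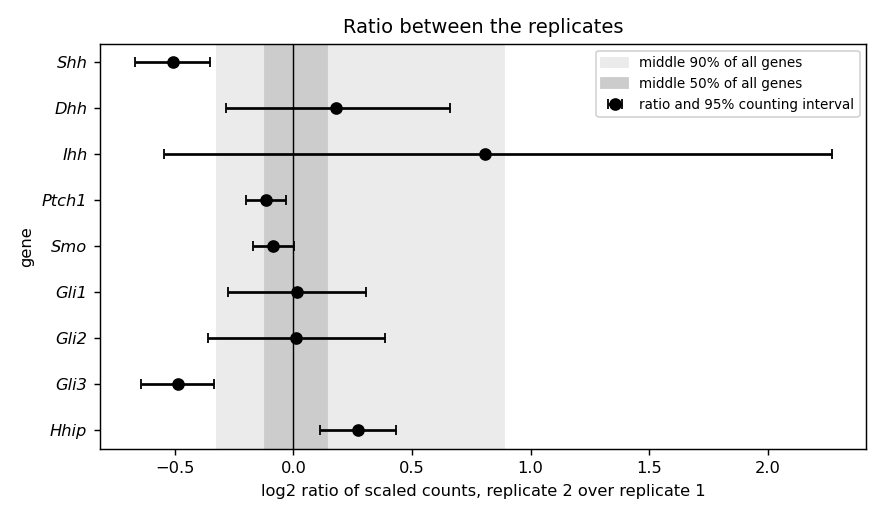
Log2 ratio of scaled counts, with no prior count, of replicate 2 over replicate 1 for each gene (points) with exact 95% counting intervals (bars). The grey bands hold the middle 50% and the middle 90% of all genes that average 100 counts or more. Shh and Gli3 lie left of the wide band, and the interval of Ihh spans zero widely.

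Markers of the cells known to make or receive these ligands were set beside the ratios, and their part in the differences was not tested. In bulk tissue, fewer cells of a type and less RNA per cell cannot be told apart. All 6 zona glomerulosa markers were lower in replicate 2, with a summed level of 174 TPM in replicate 2 against 261 in replicate 1 and a median log2 ratio of -0.52. Their most abundant members were Dab2, Cyp11b2 and Hsd3b6, and Dab2 stood at 101 TPM in replicate 2 against 141 in replicate 1. The log2 ratios of Shh, -0.51, and of Gli3, -0.49, were both near this median, which does not show which cells hold either transcript. Those of the other genes past the count filter ran between -0.12 (Ptch1) and 0.27 (Hhip). The markers themselves ran between -0.88 (Cyp11b2) and -0.18 (Wnt4). The 5 cortex markers, led by Hsd3b1, Star and Cyp21a1, differed less, with 4582 TPM in replicate 2 against 5237 in replicate 1. Every marker on the cortex, zona glomerulosa and capsule lists reached 1 TPM in both libraries.

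The 7 capsule and fibroblast markers summed to 692 TPM in replicate 2 against 352 in replicate 1, mostly through Col1a1 at 522 TPM and 209 TPM. Dcn stood at 103 TPM in replicate 2 against 81.1 in replicate 1, and Nr2f2 at 26.0 TPM and 30.0 TPM. Of the 7, 5 were higher in replicate 2, with a median log2 ratio of 0.38. Lum had a log2 ratio of 0.74, Rspo3 of 0.42 and Tcf21 of 0.22, while Pdgfra had -0.03 and Nr2f2 -0.05. Gli1 had a log2 ratio of 0.02. The range of this list, between -0.05 for Nr2f2 and 1.34 for Col1a1, was wide. Of the genes past the count filter it held Gli1, Gli2 and Hhip. Smo at -0.08, Ptch1 at -0.12, Gli3 at -0.49 and Shh at -0.51 lay below it. Schwann cell markers, led by S100b, Mbp and Erbb3, summed to 40.8 TPM in replicate 2 against 29.6 in replicate 1, and 5 of 7 reached 1 TPM in both. Growth plate cartilage markers, led by Col2a1, Col10a1 and Sox9, summed to 8.75 TPM in replicate 2 against 1.20 in replicate 1, and none of the 7 reached 1 TPM in both. Col2a1 had 1015 counts in replicate 2 and 18 in replicate 1, in the same libraries where Ihh had 14 and 8.

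Other lists described what else the libraries held. Liver markers, led by Alb, Ahsg and Trf, summed to 13299 TPM in replicate 2 against 4250 in replicate 1. Skeletal muscle markers, led by Acta1, Ckm and Tnnt3, summed to 610 TPM and 223 TPM, and smooth muscle markers, led by Acta2, Tagln and Des, to 105 TPM and 43.9 TPM. Endothelial markers, led by Egfl7, Cdh5 and Pecam1, were level at 220.1 TPM in both libraries. Epithelial markers, led by Cdh1, Krt14 and Epcam, summed to 3.52 TPM in replicate 2 against 1.37 in replicate 1, and of kidney markers Umod, Slc34a1 and Slc12a1 were at 0 counts in both, while Aqp2 and Slc12a3 were below 1 TPM.

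**Figure D4:**
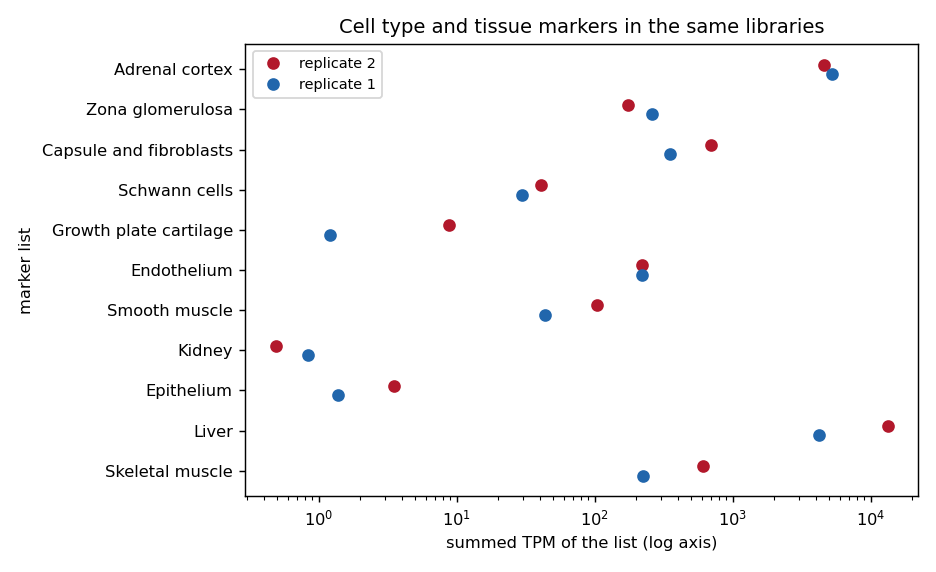
Summed TPM (log axis) of each marker list in replicate 2 (red) and replicate 1 (blue). Zona glomerulosa markers are lower in replicate 2, endothelial markers coincide, and liver, muscle and cartilage markers are higher in replicate 2.

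The other genes of the pathway were described from 5 lists of 49 genes in all. Of the 49 genes, 42 reached 1 TPM in both libraries, beside the 56.7% of all protein-coding genes. Of the 43 that averaged 100 expected counts or more, 17 were higher and 26 lower in replicate 2. Their median log2 ratio was -0.07, beside -0.01 over all genes past that filter. Only Osr1 among them lay more than 2-fold apart.

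Genes for lipidation and release of ligand were present at low level, with 4 of 5 at 1 TPM or more. Scube3, which helps release ligand from the cell, stood at 4.77 TPM in replicate 2 against 3.57 in replicate 1. Disp1, the transporter that exports lipid-modified ligand, stood at 3.38 TPM in replicate 2 against 4.24 in replicate 1, and Scube1 at 1.81 TPM and 2.37 TPM. Hhat, the acyltransferase that adds the palmitate of the ligand, had a mean of 1.99 TPM. Scube2 was the exception, with 30 counts in replicate 2 and 12 in replicate 1.

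Co-receptors that present ligand to Ptch1 were near the level of Ptch1 over all its transcripts. Over its long coding transcripts alone, Ptch1 stood at 7.19 TPM in replicate 2 and 7.96 in replicate 1. Gas1 stood at 17.2 TPM in replicate 2 against 18.8 in replicate 1, Boc at 11.1 TPM and 12.6 TPM, and Cdon had a mean of 8.50 TPM. Gpc3, a glypican that competes with Ptch1 for ligand, was the highest of the list at 37.7 TPM in replicate 2 against 26.8 in replicate 1. Lrp2 was below 1 TPM in both libraries.

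Of 16 genes for the cilium and the handling of Smo, 15 reached 1 TPM in both libraries. Mgrn1, a ubiquitin ligase that acts on Smo, stood at 29.2 TPM in replicate 2 against 30.9 in replicate 1. Grk2, a kinase of receptors of this kind, stood at 15.4 TPM in replicate 2 against 15.3 in replicate 1, and the arrestin Arrb1 at 15.3 TPM and 14.0 TPM. Gpr161, a ciliary receptor that holds the pathway off, was below 1 TPM in both, with 174 counts in replicate 2 and 133 in replicate 1.

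Regulators of the Gli proteins were the most abundant group, with a median of 32.6 TPM, and 14 of 15 reached 1 TPM in both libraries. Prkar1a and Prkaca, subunits of protein kinase A, which marks Gli proteins for processing, had means of 121 ± 9.98 TPM and 85.6 ± 2.38 TPM (SD, n = 2). Csnk1a1, a casein kinase that acts after it, had a mean of 92.1 ± 7.99 TPM (SD, n = 2). These kinases serve many pathways. Sufu, the inhibitor that holds Gli proteins in the cytoplasm, was at 7.14 TPM in replicate 2 against 7.15 in replicate 1, and the ciliary kinesin Kif7 at 1.64 TPM and 1.94 TPM. Of the 14 genes of this list past the count filter, 13 were lower in replicate 2, by small amounts. The median log2 ratio of the 14 was -0.09, between the 25th percentile of all genes past that filter, -0.12, and the 75th, 0.14. The share of all genes lower in replicate 2 was not taken, so the count of 13 has no background beside it.

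Of the 8 other reported targets, 5 reached 1 TPM in both libraries. The cyclins Ccnd2 and Ccnd1 had means of 61.4 ± 3.66 TPM and 25.4 ± 1.71 TPM (SD, n = 2), and Mycn stood at 2.74 TPM in replicate 2 against 3.43 in replicate 1. These genes respond to many signals. Osr1, a transcription factor of mesoderm, had 253 counts in replicate 2 against 105 in replicate 1, or 2.41-fold (1.91 to 3.06). The forkhead genes Foxf1, Foxf2 and Foxl1, targets in the gut, were all below 1 TPM, with Foxf2 at 1 count in replicate 2 and 2 in replicate 1.

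**Figure D5:**
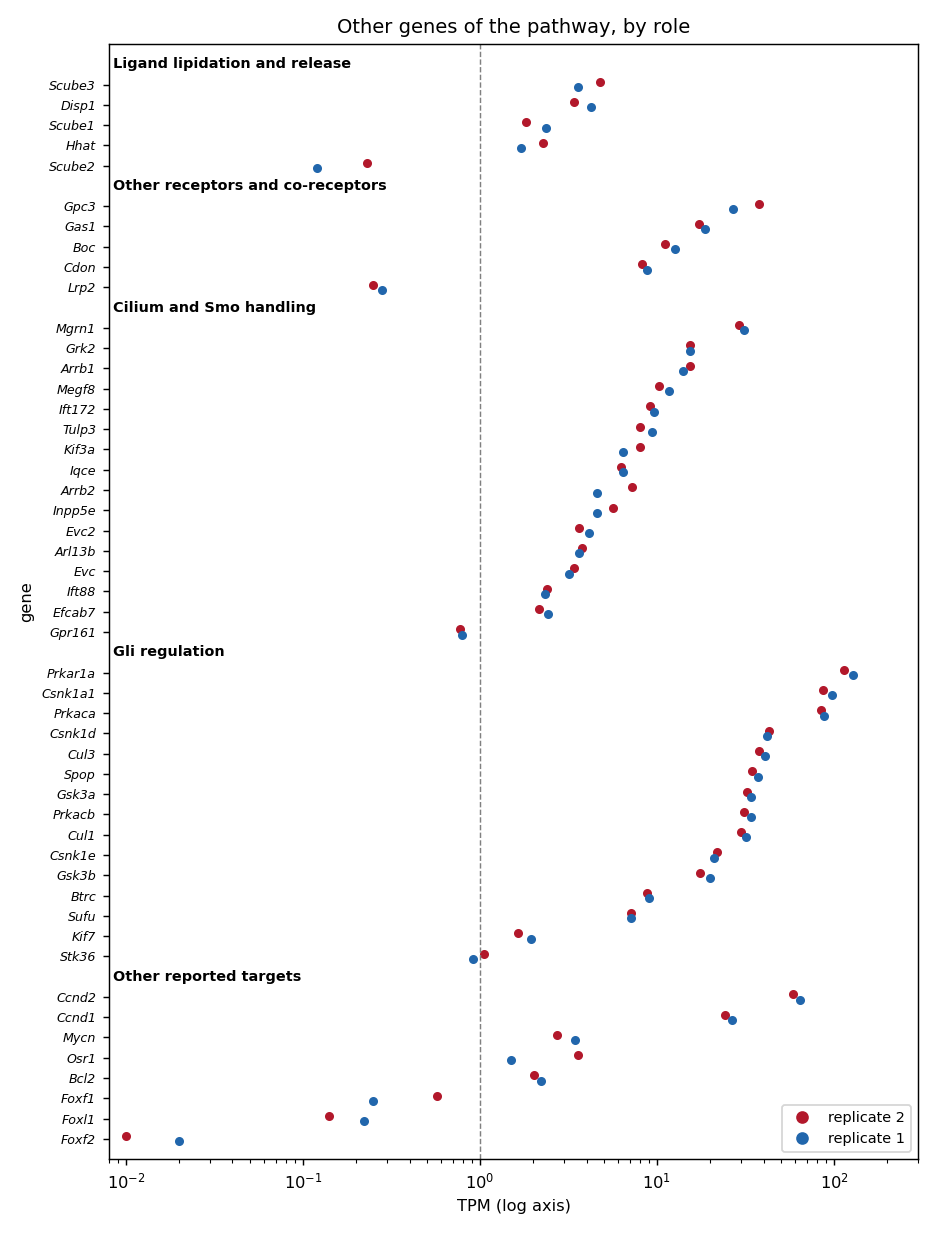
TPM (log axis) of each listed pathway gene outside the 9, grouped by role, in replicate 2 (red) and replicate 1 (blue), with 1 TPM as a dashed line. Gli regulation lies highest, with Prkar1a at 114 and 128 TPM, and Foxf2 and Scube2 lie far left.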

How the data were processed

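Total RNA of 2 adrenal gland samples, 1 group, was analysed, and replicate numbers are those of the labels. Expected counts and TPM per gene and transcript were deposited by the authors on mm10 with GENCODE M21. Their notes derive these from alignments to the transcriptome, and a second transcript table of estimated counts and TPM straight from reads. TPM is relative to all entries, spike-ins included. The deposited interval bounds and posterior SDs are a score, in TPM or reads, and the level of the interval is not stated. The quantification tools and the handling of CAST/EiJ alleles: not given in the sources used here. For the 9 genes, the posterior SD of the reads assigned to a gene was at most 1.14 reads, and 0 for 7 of them.

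Symbols were matched through the transcript table, with 0 disagreements with the annotation. Promoters are RefSeq's (GRCm38.p6). Ratios used counts scaled by TMM (edgeR 4.0.16) over annotated genes, and log2 ratios a prior of 0.5 counts. Fold intervals are exact Clopper-Pearson 95% intervals on rounded counts. They cover counting error only, as reads carry no molecular identifiers. In Poisson-simulated libraries, 100% of 200 genes set 4-fold apart passed 2-fold, and 0% of unchanged ones did, over 13188 genes. These simulated counts held counting error only. They check the computation and say nothing of the spread between real libraries. Named genes were all 9, the 3 most abundant of each list and any pathway gene past 2-fold. Others named from the lists were chosen after their values were seen. One pathway gene is not reported here and was left out of the lists. Members and lists were chosen with earlier results of these data known. With 2 libraries any 2 genes correlate at 1 or -1, so no gene was named for a like pattern. Alternatives were other scalings (DESeq2 1.42.0 size factors, library total, spike-ins), thresholds, pseudocounts, priors, the second table, TPM over nuclear protein-coding genes and each library alone. Long coding transcripts, and intervals under other scalings, were added after seeing the data. R was 4.3.3 and Python 3.11.15.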

Additional observations from a re-analysis of the deposited data

How the results depend on the processing

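No paired analysis was possible because the 2 libraries form a single group. The count of 6 genes at 1 TPM or more was 8 at a minimum of 0.5 TPM and 8 with TPM taken over nuclear protein-coding genes, 5 at 2 TPM, and 6 in the second table, in each library alone and over long coding transcripts. The share of all protein-coding genes was taken only at 1 TPM in the first table, so the other counts have no background beside them. None of the 9 genes was more than 2-fold apart under any scaling, count minimum or table tried, so that count stayed 0. With TMM none of the 7 past the filter was more than 1.5-fold apart, while scaling by library total put Shh at -0.59 on the log2 scale, just past 1.5-fold. For the other pathway genes that count was 1, and 3 with no count filter, which adds genes of under 100 counts. All 45 alternative ratios lay inside their counting intervals, but 5 of them, of Gli1 and Gli2, had the opposite sign, between -0.06 and -0.03 on the log2 scale. The intervals excluding 1 were 4 with TMM or DESeq2 size factors and 5 with library totals or spike-ins, which added Smo. Of 12 mean differences between genes, 8 moved by more than their SD with a pseudocount of 1 TPM. Over long coding transcripts 8 did, and 4 did in the second table. None of these means over both libraries changed direction. In replicate 1 of the second table, however, Hhip was below Gli1, at 2.83 against 2.93 TPM. Levels in TPM moved with what they are relative to: the second table gave the 9 genes log2 ratios to the first between -0.10 and 0.61, where the median over protein-coding genes at 1 TPM or more was 0.64. The leave-one-out levels of each gene are the per-library values of the report. Depth limits Ihh and Dhh most.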
